A study of Ascaris suum with 10 samples.

Results

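Intestine-led genes of the pig roundworm Ascaris suum were defined from the deposited expression table as genes with at least 100 RPKM in intestine and at most 20% of that value in every one of the 7 other columns. RPKM is a read density, reads scaled to the length of the gene model and to the mapped reads of the library. The rule selected 126 of 15446 genes, or 0.816% of the table, and 126 of the 829 genes that reached 100 RPKM in intestine. The intestine values and the ceiling on the other columns chose these genes, so their high intestinal level is a description and was not tested.

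The nematode intestine is a tube of epithelial cells that digests food and takes up nutrients. In Caenorhabditis elegans it also stores lipid and makes the yolk proteins that are passed to the ovary, and its cells descend from a single early blastomere whose fate is set by GATA transcription factors. In parasitic nematodes the gut is known for secreted proteases and membrane transporters. The table gives its own identifiers with no gene names, so none of these functions could be assigned to a member, the labelled tissues could not be checked against known markers, and no sequence is shown.

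The series holds 10 libraries of polyadenylated RNA from a North American wild population of untreated worms. The columns used here are adult intestine; male carcass and female carcass, each listed with muscle, hypodermis, pharynx and neurons; adult muscle, listed with hypodermis; second-stage larvae of 7 days; early embryos; and the germinal zones of testis and ovary. The intestine and muscle labels name no sex, and intestine is not among the tissues listed for either carcass. By its name, the embryo column was taken to stand for the 3 embryo libraries. These came from eggs incubated for 24 hr (1 cell), 46 hr (1 to 2 cells) and 64 hr (2 to 4 cells). No source used here says how they were combined, and every other column stands for 1 library. There was thus no replicate error, no difference was tested across animals, and each comparison is one of these libraries. No source used here gives the read totals. The columns' RPKM sums lay between 564412.4 (larva) and 821149 (female carcass).

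The members had a median of 292.1 RPKM in intestine, ranging from 101 to 115894.5 RPKM. They held 31.6% of the intestine column's summed RPKM. Outside intestine their summed share was 1.52% in the male carcass, 1.47% in the female carcass and 0.818% in muscle, and it was 0.201% in larva, 0.306% in embryo, 0.121% in testis and 0.292% in ovary. A single gene made up much of the intestinal share, and without it the members held 14.9% of that column. In bulk RNA such as this, fewer cells of a type and less RNA per cell cannot be told apart.

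**Figure D1:**
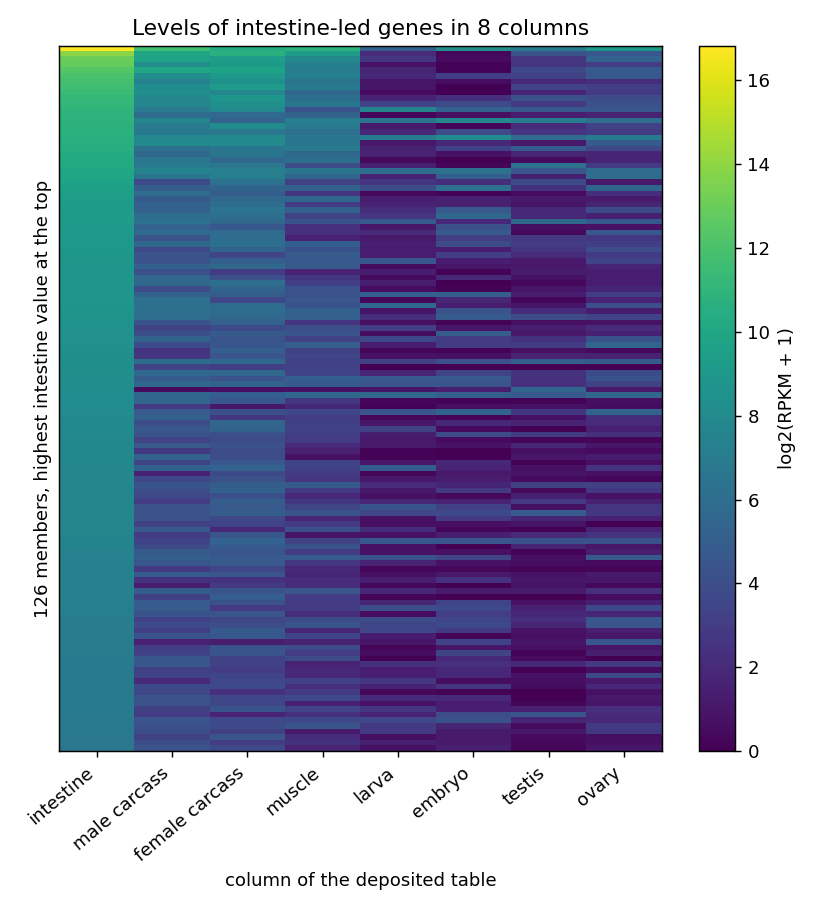
Each row is 1 of the 126 intestine-led genes, ordered by its intestine value, each column is a column of the deposited table, and colour gives log2(RPKM + 1). The carcass and muscle columns fade with the intestine column from top to bottom, while larva, embryo, testis and ovary are dark for most rows with scattered bright ones.

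The most abundant member was ASG15439, the highest gene of the whole intestine column at 115894.5 RPKM. It stood at 3287.3 RPKM in the male carcass, 1298.2 in the female carcass and 1861.3 in muscle, and at 35 RPKM in larva, 318.7 in embryo, 129.1 in testis and 511.4 in ovary. Its intestine value was 35.3-fold above the next column, and its percentages of the intestine value (2.84% in the male carcass, 1.12% in the female carcass, 1.61% in muscle) lay below the member medians. The second member, ASG12783, had 15594.9 RPKM in intestine, 991.5 in the male carcass, 1656.3 in the female carcass and 627.4 in muscle. Outside adult soma it had 3.2 RPKM in larva, 0.3 in embryo, 19.1 in testis and 22.2 in ovary. ASG03207 followed with 8498.4 RPKM in intestine, 850.6 in the male carcass, 665.8 in the female carcass and 235.9 in muscle, and it had 5.2 RPKM in larva, 0.4 in embryo, 5.2 in testis and 38.8 in ovary. In all 3 of these genes the lowest adult somatic value outside intestine lay above every value in larva, embryo, testis and ovary.

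Members were not the whole of the intestine's abundant RNA. Of the 10 highest genes of the intestine column 4 were members, and of its 72 genes at 1000 RPKM or more 23 were members. The 703 other genes of 100 RPKM or more in intestine mostly exceeded the ceiling in a carcass or in muscle as well as in a column outside adult soma (525 genes). For 154 of them a carcass or muscle alone broke the ceiling, and for 24 larva, embryo or a gonad alone did. Intestine was still the highest column for 291 of the 703. Scaled by the median of ratios, the rule would select 238 genes, 125 of the 126 members among them.

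Over the members, intestine exceeded the next column by a median of 7.59-fold, with a range of 5.10-fold to 47.0-fold, and 41 members exceeded it at least 10-fold. The next column was a carcass for 108 members, female carcass for 57 and male carcass for 51. It was muscle for 5 members, ovary for 6, embryo for 4, testis for 2 and larva for 1. ASG00501 had the largest ratio, with 281.9 RPKM in intestine, 6 in the male carcass, 1.1 in the female carcass, 2.6 in muscle and under 1 RPKM in larva, embryo, testis and ovary. At the other end, ASG01930 had 107 RPKM in intestine and 20.9 in the female carcass, and ASG14187 had 160.5 RPKM in intestine and 31.5 in the female carcass. Both genes stood at 8.6 RPKM or less in the male carcass.

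Some genes lay close to a threshold. Just inside the intestine minimum were ASG05284 at 101 RPKM and ASG02693 at 106.2 RPKM, and just below it were ASG14523 at 98.8 RPKM and ASG11899 at 96.7 RPKM. Just under the ceiling were ASG14187, with 19.6% of its intestine value in the female carcass, and ASG01930, with 19.5% there. Just over it were ASG15313, with 20.4% in the female carcass, and ASG10229, with 20.5% in the female carcass. ASG15313 is among the most abundant gut transcripts, with 47517.8 RPKM in intestine, 4237.4 in the male carcass, 9696.1 in the female carcass and 1632.7 in muscle, but only 13.4 RPKM in larva and 0.1 in embryo.

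Levels outside intestine were expressed as a percentage of the intestine value of the same gene. The median was 8.09% in the male carcass (quartiles 4.44% and 13.2%), 9.23% in the female carcass (5.96% and 13.9%) and 3.57% in muscle (2.05% and 5.52%). In larva it was 0.438% (quartiles 0.140% and 1.98%), in embryo 0.798% (0.168% and 3.72%), in testis 0.402% (0.177% and 1.25%) and in ovary 0.794% (0.374% and 2.59%). The carcass and muscle percentages therefore lay close together and those of the other columns were spread out. The upper quartile was 2.97 times the lower in the male carcass, 2.33 times in the female carcass and 2.69 times in muscle, against 14.1 times in larva, 22.2 times in embryo, 7.07 times in testis and 6.91 times in ovary. The ceiling of 20% narrows the carcass spread from above, since 25 members stood at 15% or more in the male carcass and 20 in the female carcass. The wide spreads include values near the floor of a table rounded to 1 decimal. The lower quartile of member levels was 0.725 RPKM in larva, 0.525 in embryo and 0.6 in testis. Members listed at 0 numbered 2 in larva, 10 in embryo and 7 in testis. After median-of-ratios scaling the medians were 5.72% in the male carcass, 5.99% in the female carcass and 3.82% in muscle, against 0.158% in larva, 0.192% in embryo, 0.441% in testis and 0.301% in ovary.

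**Figure D2:**
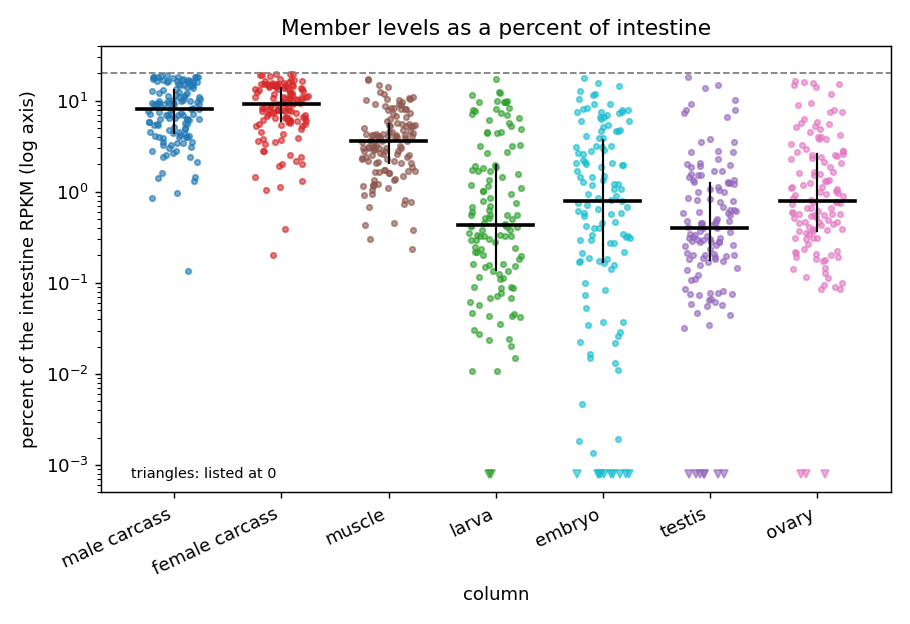
Each point is 1 of the 126 members, the vertical axis gives its RPKM as a percent of its intestine RPKM on a log axis, triangles mark values listed at 0, and bars give the median and quartiles. The dashed line is the ceiling of 20%. The carcass medians (8.09% and 9.23%) and the muscle median (3.57%) stand above the medians of the other 4 columns, which are all under 1%.

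The percentages in the carcasses changed little with the intestine level. Members of 100 to 200 RPKM in intestine (n = 40) had median percentages of 9.81% in the male carcass, 10.5% in the female carcass and 4.16% in muscle. Members of 1000 RPKM or more (n = 23) had 7.69% in the male carcass, 9.28% in the female carcass and 3.63% in muscle. Muscle was lower in the bins between, at 3.14% for the 50 members of 200 to 500 RPKM and 1.67% for the 13 members of 500 to 1000 RPKM, a thinly filled bin. In larva the median percentage was 1.26% for members of 100 to 200 RPKM and 0.0712% for members of 1000 RPKM or more, and in embryo it was 1.86% and 0.0535%. The larva percentage was lower in each higher bin, but the embryo percentage was 2.66% in that thinly filled bin and 0.600% among the members of 200 to 500 RPKM. These percentages divide by the intestine value that sets the bins, so a flat level gives a falling percentage. From the lowest bin to the highest, the median level was 1.75, 1.25, 2 and 2.1 RPKM in larva. In embryo it was 2, 1.85, 13.4 and 0.7 RPKM.

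The levels themselves were also compared with the intestine level. Across the 126 members, the intestine RPKM had a Spearman's rho of 0.78 with female carcass, 0.71 with male carcass and 0.64 with muscle. It was 0.51 with testis and 0.45 with ovary, and 0.11 with larva and 0.06 with embryo. These are correlations across genes of the same libraries, given as a description. The ceiling by itself ties the other columns to the intestine value. Over the 703 non-members of 100 RPKM or more in intestine, each of which exceeded it in at least 1 column, rho with intestine was 0.63 in the female carcass, 0.61 in the male carcass and 0.47 in muscle, 0.24 in larva and 0.18 in embryo.

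**Figure D3:**
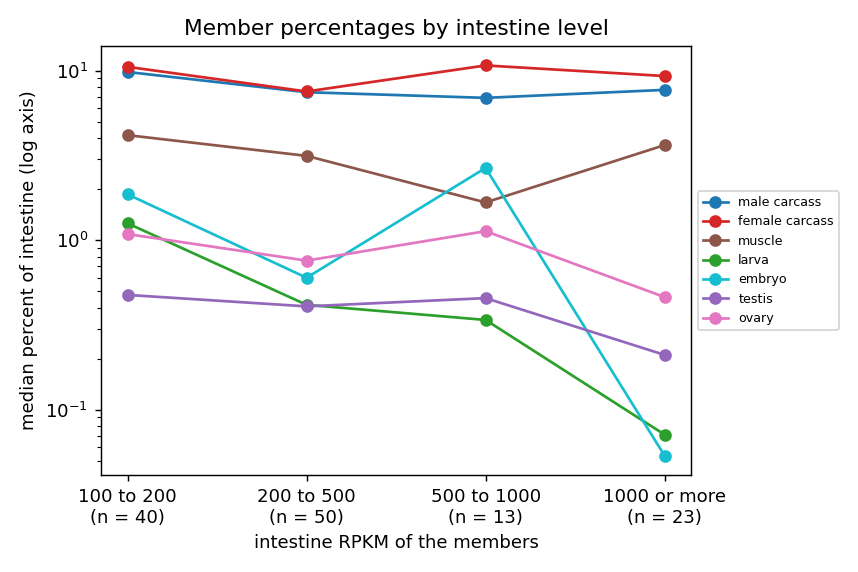
Points give the median percent of the intestine RPKM (log axis) of the members in each of 4 bins of intestine RPKM, with 1 line per column and the number of members under each bin. The carcass lines stay between 6.90% and 10.7% across the bins, while larva reaches 0.0712% and embryo 0.0535% in the highest bin. The percentages divide by the intestine value that sets the bins.

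Whether the earlier stages already contain these transcripts was asked at a detection level of 1 RPKM. In larva 84 of the 126 members (66.7%) reached it and in embryo 86 (68.3%), against 81.2% and 79.1% of all genes in larva and in embryo. The members' shares thus lay below those of the table, and further below those of the 703 non-members of 100 RPKM or more in intestine, of which 95% were detected in larva and 92.7% in embryo. The ceiling excludes genes with high values in these stages, so the gap to the non-members is partly built into the rule. The ceiling does not by itself hold a member under 1 RPKM, and its part in the gap to all genes was not tested. Detection at 1 RPKM was reached in both stages by 69 members, in larva without embryo by 15, in embryo without larva by 17 and in neither by 25. At 5 RPKM the numbers were smaller, 36 members in larva (58.9% of all genes) and 47 in embryo (61.2% of all genes), with 24 in both and 67 in neither.

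The 25 members under 1 RPKM in both stages were 19.8% of the members, against 11.3% of all genes. Their intestine values ran from 120.3 to 7467.1 RPKM with a median of 290.1 RPKM, near that of all members. Of these 25, 11 were also under 1 RPKM in both gonads. ASG12785 was the most abundant of the 25, with 7467.1 RPKM in intestine, 297 in the male carcass, 583.6 in the female carcass and 154.9 in muscle, against 0.8 RPKM in larva and 0.1 in embryo. ASG01257, singled out after its values were seen, was the only member listed at 0 in larva, embryo, testis and ovary alike. It stood at 324.5 RPKM in intestine, 9.9 in the male carcass, 7.9 in the female carcass and 8.5 in muscle.

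The opposite kind of member was present before the adult stage at a sizeable level. The highest value in larva belonged to ASG06066, at 190.9 RPKM in larva and 37.9 in embryo, with 1923.1 RPKM in intestine. It also had 123.1 RPKM in the male carcass, 249.6 in the female carcass, 18.1 in muscle, 24.2 in testis and 22.9 in ovary. ASG05690 had 130.4 RPKM in larva and 294.8 in embryo, with 1666.7 RPKM in intestine, 221.4 in the male carcass, 248.2 in the female carcass and 93.2 in muscle. For ASG05690 embryo was the next highest column, at 17.7% of intestine. The highest embryo value, 318.7 RPKM, was that of ASG15439, where it made up only 0.275% of the intestine value.

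In all, 38 members had 5% or more of their intestine value in at least 1 of larva, embryo, testis and ovary, and 45 members stayed under 1% in all 4. This division was made after the values were seen. It divides by the same intestine value as the carcass and muscle percentages below, so those percentages are not independent of it and are only a description. The 38 had a median of 283.5 RPKM in intestine and median percentages of 9.66% in the male carcass, 10.6% in the female carcass and 4.53% in muscle. The 45 had a median of 448 RPKM in intestine and 5.54% in the male carcass, 7.83% in the female carcass and 2.62% in muscle. Of the 126 members, 14 had 5% or more in both larva and embryo, 7 in larva without embryo and 11 in embryo without larva. Only ASG03255 and ASG06568 had 5% or more in all of larva, embryo, testis and ovary.

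Larva and embryo were then compared gene by gene on log2(RPKM + 1), a scale that understates the change of low genes. A difference of at least 2, or 4-fold on that scale, was counted. Larva was higher at 9 members (7.14%) and lower at 17 (13.5%), against a background of 8.81% of all genes higher and 11.7% lower. Of the members, 67 were under 5 RPKM in both stages, and all 26 counted differences lay among the other 59, as 15.3% higher and 28.8% lower. Among all genes with at least 5 RPKM in either stage, 11.8% were higher in larva and 16.1% lower. Of the 703 non-members of 100 RPKM or more in intestine, 10.8% were higher in larva and 6.83% lower. The median difference over members was 0.00, with quartiles of -0.97 and 0.57, against a median of -0.25 over all genes. Under median-of-ratios scaling the median was 0.15 over members and 0.10 over all genes. Larva was then higher at 6 members (4.76%), against 9.69% of all genes, and lower at 6 (4.76%), against 6.03%. Counting by sign alone as deposited, 61 members were higher in larva and 63 lower.

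The extremes were far apart. ASG05895 had 48.2 RPKM in larva and 1.4 in embryo, a log2 difference of 4.36, and also 15.9 RPKM in ovary and 1 in testis. ASG01618 had 28.3 RPKM in larva and 2 in embryo (log2 difference 3.29). Both had their next highest column in a carcass. In the opposite direction, ASG01348 had 0.5 RPKM in larva and 28.7 in embryo (log2 difference -4.31), and embryo was its next highest column after 365.4 RPKM in intestine. ASG11900 had 2 RPKM in larva and 31 in embryo (log2 difference -3.42), with 61.2 RPKM in ovary and 1.8 in testis.

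**Figure D4:**
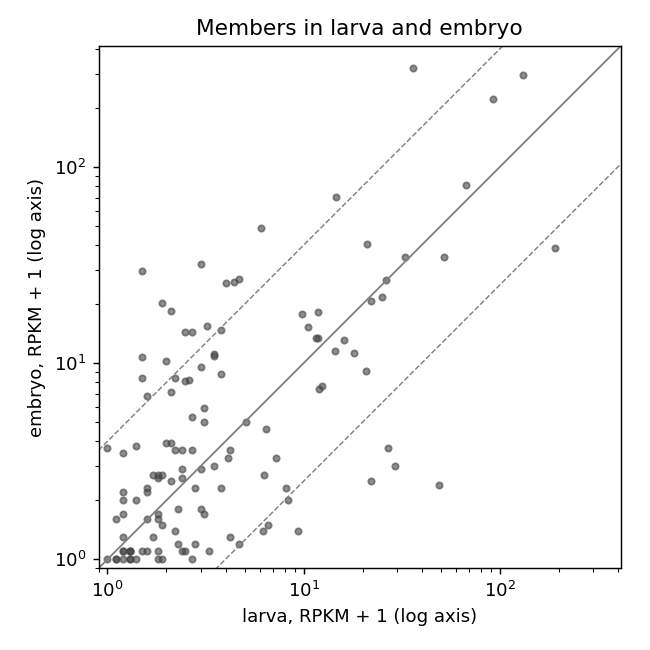
Each point is 1 of the 126 members, with larva on the horizontal and embryo on the vertical axis, both as RPKM + 1 on log axes. The solid line marks equal values and the dashed lines a 4-fold difference. Beyond the dashed lines lie 9 members on the larva side and 17 on the embryo side, and most members crowd at low values of both.

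Across members the RPKM values of larva, embryo and the gonads had a Spearman's rho of 0.60 between larva and embryo, 0.67 between larva and ovary, 0.54 between embryo and ovary, 0.67 between testis and ovary, 0.48 between larva and testis and 0.44 between embryo and testis. The corresponding values over the 703 non-members were higher, at 0.82, 0.84, 0.79, 0.88, 0.79 and 0.72. Testis and ovary held the members at low levels, with medians of 1.45 RPKM in testis and 3.15 RPKM in ovary. At 1 RPKM or more, 75 members (59.5%) were detected in testis and 103 (81.7%) in ovary, against 66.6% and 79.1% of all genes in testis and in ovary. The ovary share is the only one of these 4 columns that was not below the share of all genes.

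Nearly every member was detected in the carcass and muscle columns. At 1 RPKM or more, 125 members were detected in the male carcass, 125 in the female carcass and 123 in muscle (99.2%, 99.2% and 97.6%), against 75.6%, 74.9% and 64.2% of all genes in these columns. The 703 non-members of 100 RPKM or more in intestine were detected there just as widely, at 100%, 99.1% and 99.7%. The median level was 22.2 RPKM in the male carcass, 24.8 RPKM in the female carcass and 9.65 RPKM in muscle. For 75 members the lowest of these 3 values was above every value in larva, embryo, testis and ovary, and for 113 the highest of them was. The labels list no intestine in these libraries, and the part that gut tissue may have in these values was not tested.

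The carcasses stood above muscle for most members. Male carcass was higher than muscle at 97 members and female carcass at 99, and both carcasses were higher at 81, whereas both were lower at 11. The share of all genes by sign was not computed. All genes also leaned toward the carcasses, with median log2 differences from muscle of 0.33 for male carcass and 0.34 for female carcass. By the 4-fold rule, male carcass was higher at 30 members (23.8%), against 6.36% of all genes, and lower at 0, against 1.35%. Female carcass was higher than muscle at 35 members (27.8%), against 6.58% of all genes, and lower at 1, against 1.31%. Low genes cannot pass this rule, and when the table was limited to genes with at least 5 RPKM in 1 of the columns compared, the backgrounds of higher genes were 11.6% for male carcass and 11.8% for female carcass. That limit kept 122 of the 126 members for male carcass and 121 for female carcass.

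The median log2 difference of the members was 0.94 for male carcass minus muscle (quartiles 0.10 and 1.90), against 0.33 over all genes. For female carcass minus muscle it was 1.19 (quartiles 0.35 and 2.03), against 0.34 over all genes. The 703 non-members of 100 RPKM or more in intestine lay between, with medians of 0.65 for male carcass and 0.57 for female carcass, and 14.1% and 13.8% of them were higher by the 4-fold rule. These 2 comparisons share the muscle library. With the columns scaled by the median of ratios the all-gene medians were 0.03 and 0.00, and the members' medians were 0.38 for male carcass and 0.50 for female carcass. Male carcass was then higher by the 4-fold rule at 21 members (16.7%), against 4.94% of all genes, and female carcass at 12 (9.52%), against 3.96%. Under this scaling, shares limited to genes with at least 5 RPKM, or to the non-members, were not computed.

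The members furthest apart between carcass and muscle included ASG06800, with 38.3 RPKM in the male carcass, 13.6 in the female carcass and 0.7 in muscle (male carcass minus muscle 4.53 on the log2 scale). ASG13607 had 51.8 RPKM in the male carcass, 59 in the female carcass and 3.9 in muscle. ASG14525 had 20 RPKM in the male carcass, 63.5 in the female carcass and 1.9 in muscle, the largest log2 difference between female carcass and muscle at 4.48. For ASG06066, the gene highest in larva, the values were 123.1, 249.6 and 18.1 RPKM in the same order of columns. On the muscle side, ASG10344 had 1.9 RPKM in the male carcass and 6.8 in muscle, and ASG09434 had 12.7 RPKM in the male carcass and 33.4 in muscle. ASG02802 was the single member lower in the female carcass by the 4-fold rule, at 2.6 RPKM against 16 RPKM in muscle, and ASG11227 came next at 37.5 RPKM in the female carcass and 146.2 RPKM in muscle.

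**Figure D5:**
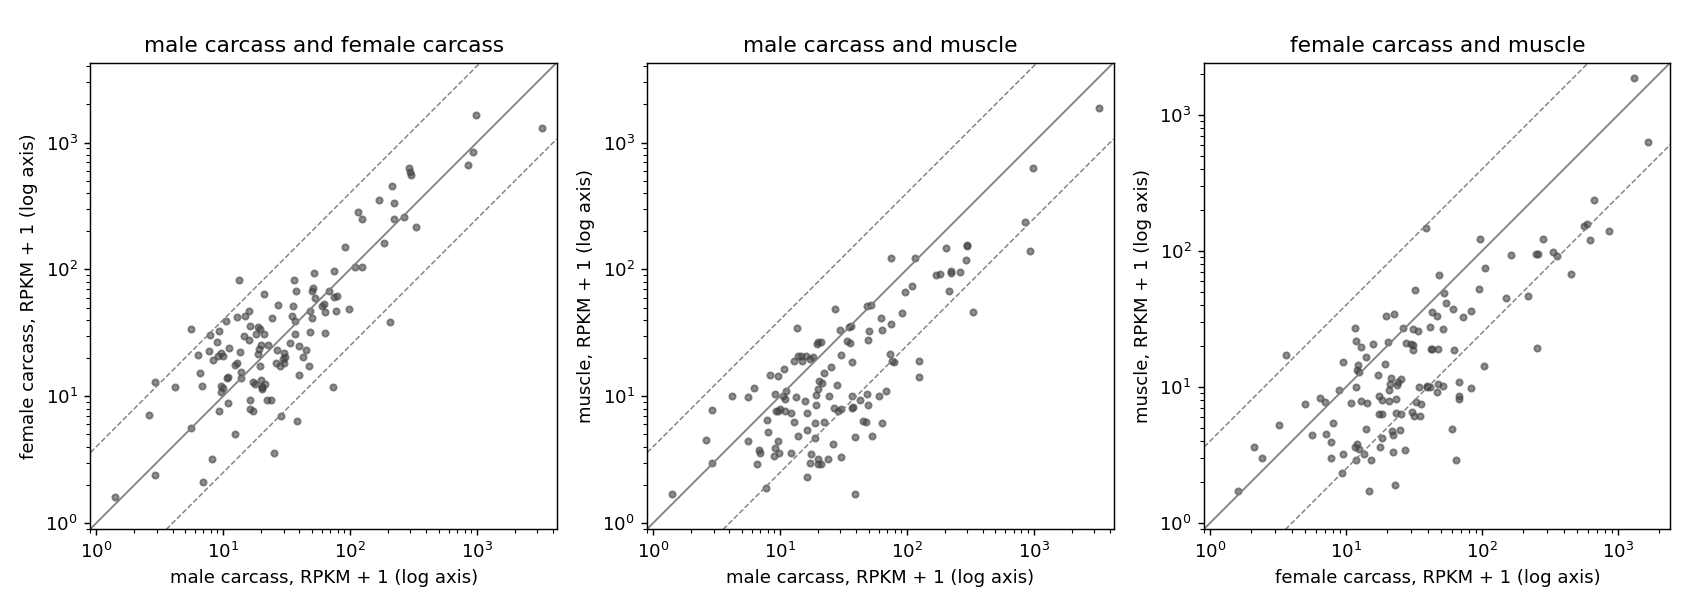
Each point is 1 of the 126 members, plotted as RPKM + 1 on log axes for male carcass and female carcass, male carcass and muscle, and female carcass and muscle. Solid lines mark equal values and dashed lines a 4-fold difference. In the panels with muscle most points lie below the line of equal values, with 30 members beyond the lower dashed line for male carcass and 35 for female carcass.

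Male and female carcass differed at few members. Male carcass was higher by the 4-fold rule at 5 members (3.97%), against 3.59% of all genes, and lower at 3 (2.38%), against 2.4% of all genes. Both counts were thus near the share of all genes. Of the 703 non-members of 100 RPKM or more in intestine, 6.4% were higher in the male carcass and 2.13% lower. A background for the 4-fold rule limited to genes with at least 5 RPKM was not computed for this pair. The median log2 difference was -0.17, with quartiles of -0.89 and 0.58, against 0.00 over all genes, and 58 members were higher in the male carcass and 67 lower. Within 1 on the log2 scale lay 79 members. The median absolute difference was 0.76 over the members, against 0.49 over all genes and 0.43 over the 703 non-members of 100 RPKM or more in intestine. With at least 5 RPKM in either carcass, it was 0.76 over 123 members and 0.58 over all such genes. The median log2 differences were then -0.18 over those members and -0.09 over all such genes.

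The 5 members higher in the male carcass were ASG02802, ASG05983, ASG11898, ASG11227 and ASG14572. ASG02802 had 24.4 RPKM in the male carcass and 2.6 in the female carcass, with 16 in muscle and 199.4 in intestine. ASG05983 had 72.6 RPKM in the male carcass and 10.8 in the female carcass, with 20.7 in muscle and 428.4 in intestine. ASG11227 had 204.3 RPKM in the male carcass and 37.5 in the female carcass, and it was also among the higher members elsewhere, at 91.5 RPKM in larva, 220.9 in embryo, 136 in testis and 62.2 in ovary. The 3 members lower in the male carcass were ASG02513, ASG01542 and ASG10344. ASG02513 had 12.3 RPKM in the male carcass and 81.5 in the female carcass, and ASG01542 had 4.6 RPKM in the male carcass and 33 in the female carcass. Muscle stood at 8.8 RPKM for ASG02513 and 8.9 RPKM for ASG01542.

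A pair of members had unusually small shares of their intestine value in the carcasses and muscle, and they were singled out after their values were seen. ASG11147 had 294.1 RPKM in intestine but 0.4 in the male carcass, 0.6 in the female carcass and 0.7 in muscle, the lowest member value in each of these columns, tied in muscle with ASG06800. Its next highest column was testis, at 43.9 RPKM, and it had 0.9 RPKM in larva, 1.7 in embryo and 1.2 in ovary. ASG04051 had 133 RPKM in intestine, 1.9 in the male carcass, 1.4 in the female carcass and 2 in muscle, and its next highest column was ovary at 21.5 RPKM, with 9.3 RPKM in embryo. These were the only members below 2% of their intestine value in both carcasses and muscle.

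Some members carried neighbouring identifiers, though most did not. The rule did not use this feature, and it was looked at after the member list was seen. Of the 246 distinct identifiers next in number to a member, 20 (8.13%) were themselves members, against 0.816% of all genes. Of the 126 members, 20 had an adjacent member and 33 had another member within 3 numbers. No share of all genes was computed for that wider window. No source used here says what the order of the identifiers stands for. The 226 neighbours that were not members had a median of 6.05 RPKM in intestine, against 1.7 RPKM over all genes, and 9.73% of them reached 100 RPKM there, against 5.37% of all genes. Both genes just below the intestine minimum belonged to such runs, ASG14523 beside ASG14524 and ASG14525, and ASG11899 between ASG11898 and ASG11900.

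The 11 pairs of adjacent members differed in intestine level by between 1.03-fold, for ASG07578 and ASG07579 at 459.5 and 448 RPKM, and 23.5-fold, for ASG06800 and ASG06801. ASG12783, ASG12784 and ASG12785 had 15594.9, 3803.2 and 7467.1 RPKM in intestine. Their female carcass values were 10.6%, 9.28% and 7.82% of intestine and their muscle values 4.02%, 2.36% and 2.07%, and none exceeded 3.2 RPKM in larva or 0.5 RPKM in embryo. ASG06800, ASG06801 and ASG06802 had 230.5, 5422.9 and 2704.5 RPKM in intestine. All 3 were higher in male than in the female carcass, at 38.3, 928.6 and 332.6 RPKM in the male carcass against 13.6, 847.6 and 216.2 RPKM in the female carcass. ASG01257, listed at 0 in 4 columns, was adjacent to ASG01258, which had 1871.8 RPKM in intestine and at most 2.1 RPKM in larva, embryo, testis and ovary. ASG01541 and ASG01542 were both lower in the male carcass, at 5.6 and 4.6 RPKM, against 14.3 and 33 RPKM in the female carcass. Whether adjacent genes are near-identical copies among which reads were divided was not tested.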

How the data were processed

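The members and their comparisons were chosen with earlier results of these data known. Poly(A)+ RNA was fragmented, random-primed and amplified over 17 PCR cycles, per the labels' protocols. The authors deposited RPKM values, rounded to 1 decimal, for 15446 genes in 8 columns. The submitters' processing notes name TopHat and Cufflinks. No source used here gives versions, genome build, annotation, gene lengths or strandedness, so depth is unknown and no interval was computed. Columns were matched to samples by title, embryo by stage. Columns from outside the series numbered 0.

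Selection, percentages, log2(RPKM + 1) differences and Spearman's rho were computed in Python 3.11.15 with pandas 2.3.3, NumPy 2.4.6 and SciPy 1.17.1. No count test was used. The arithmetic was checked on simulated data. Named genes were the 3 highest in intestine, the 2 extremes of each ratio or comparison, the 2 highest in each larva, embryo, carcass and muscle column, and the 2 on each side of each threshold. Genes named by their low carcass values, zeros, adjacent numbers or small counts were added after their values were seen. The planned gene lists could not be used, because the identifiers come without gene names. Alternatives were other minimums, ceilings, pseudocounts, detection levels, thresholds and 3 rescalings.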

Additional observations from a re-analysis of the deposited data

How the results depend on the processing

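No paired analysis was possible because each column stands for 1 library or an undivided set of 3. The number of members was 36 at an intestine minimum of 500 RPKM; 265, 199 and 41 at ceilings of 1/2, 1/3 and 1/10; and 232 and 238 under upper-quartile and median-of-ratios scaling, which held 126 and 125 of the 126 reported members. Detected members numbered 36 and 25 in larva, and 47 and 33 in embryo, at 5 and 10 RPKM. In larva these were 28.6% and 19.8% of the members, against 58.9% and 47.1% of all genes. In embryo they were 37.3% and 26.2%, against 61.2% and 52% of all genes. At an intestine minimum of 200 RPKM the set held 86 members, of which 56 were detected in embryo.

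Larva was higher than embryo at 24 and 5 members with pseudocounts of 0.1 and 5 RPKM and at 20 and 3 at log2 thresholds of 1 and 3. It was lower at 27 and 5 with those pseudocounts, at 31 and 6 at those thresholds, and at 9 and 6 under upper-quartile and median-of-ratios scaling. The share of all genes was not computed at these pseudocounts and thresholds, here or for the carcass comparisons below. Nor was it computed under upper-quartile scaling or equal column sums. Under median-of-ratios scaling it was computed only for larva against embryo and for carcass higher than muscle, as given above. The other counts therefore cannot be set against a background.

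Male carcass was higher than female carcass at 3 members with a pseudocount of 5 RPKM, 18 at a threshold of 1 and 0 at 3, and lower at 1, 29 and 0. Male carcass was higher than muscle at 14, 59 and 6 members under the same 3 settings. It was lower at 3 at a threshold of 1 and at 1 under median-of-ratios scaling. Female carcass was higher than muscle at 14, 72 and 7 members, and at 19 and 12 under those scalings. It was lower at 0, 3 and 0 members, and at 2 with each of the 3 rescalings.

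The median percentage with equal column sums, upper-quartile scaling, median-of-ratios scaling and a minimum of 500 RPKM was 7.12%, 5.91%, 5.72% and 7.45% in male carcass, 7.83%, 6.55%, 5.99% and 10.1% in female carcass, and 3.55%, 3.47%, 3.82% and 3.31% in muscle. Thresholds and pseudocounts change counts by their construction, and the cause of the other shifts was not tested. Read depth is unknown, so zeros carry no detection limit.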
